A study of Rattus norvegicus with 24 samples.

Results

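The comparison set right ventricles labelled CHF against right ventricles labelled HYP, in rats, at day 14. It used 12 of the 24 arrays of the study, 6 CHF and 6 HYP, and the 2439 of 4126 named genes that had a value on at least 4 arrays of each of these groups. Every array was hybridised with total RNA of 1 ventricle sample in one channel and with a reference pool in the other. The series title names monocrotaline and both compensated and decompensated hypertrophy, so that CHF is read here as the failing and HYP as the compensated ventricle. CON, which has 6 right ventricle arrays of the same day, is taken to be the control group. None of these abbreviations is explained in the labels, which give no dose, age or strain and do not say how a sample was assigned to CHF or HYP. They also do not state that the samples of a group are separate animals, and a p-value here reflects the spread among the arrays of a group, which could be technical in part or in whole. In the published description of this model the groups differ in the dose of monocrotaline and day 14 lies before failure is overt, so CHF and HYP would name the course a ventricle was bound for.

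Monocrotaline is a plant toxin that damages small arteries of the lung, and the right ventricle then pumps against a raised pressure. A ventricle under such a load first thickens and keeps up its output, which is called compensated hypertrophy, and may later dilate and fail. Loaded heart muscle is known for taking up a fetal gene programme, for shifting from fatty acids towards glucose as fuel and for changes of its calcium handling, sarcomere and matrix genes. Both of the genes this contrast was set up around have other roles. Cdk1 is the kinase that, bound to cyclin B, drives a cell into mitosis, and Itpka is a kinase that phosphorylates the calcium-releasing messenger inositol trisphosphate and also binds actin.

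The deposited values are signed scores, standardised within each array, and every value here is a score after the array's median was set to 0. A difference is the mean of CHF minus the mean of HYP in units of array SDs, given ± its SE from limma, and is not a log2 fold change. Between 2162 and 3658 of 4803 probes had a value on an array, and 1530 of the 2439 genes had a value on all 12. The files hold no measure of signal over background, so precision depends on how many arrays there are. The defining markers of heart muscle that were measured, among them Myh6, Tnnt2, Tnni3 and Pln, had scores in both groups, but a score relative to a pool does not show how abundant a transcript is.

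The arrays did not sort by label. Across probes, which are not independent replicates, the median Pearson correlation was 0.152 between CHF arrays (15 pairs), 0.348 between HYP arrays (15 pairs) and 0.368 between a CHF and a HYP array (36 pairs). CHF arrays 10 and 14 resembled each other (r = 0.83) and correlated with the other 10 arrays at -0.53 to 0.464, with a median of -0.108. With the left ventricle arrays of the study, array 10 correlated at -0.094 to 0.538 and array 14 at -0.059 to 0.653. Only HYP left ventricle array 3 was below 0 with them. Within the other 4 CHF arrays the correlations ran from 0.548 to 0.788. HYP array 4 correlated with the other 11 at -0.123 to 0.431, and CHF array 11 and HYP arrays 3 and 8 were close to each other and to CON array 18 (0.787 to 0.867). Because pairs went as low as -0.53 and the sources used here do not give the dyes, the direction of single arrays is not settled. As deposited, CHF arrays 10 and 14 had Hbb at -3.75 and -2.94, where all CHF arrays ran from -3.85 to -0.133. Acta1 was at 1.72 and 1.39 on them, where all CHF arrays ran from 1.08 to 2.71. For Vegfa they stood apart, at 3.51 and 3.12, with the other measured CHF arrays below 0. Whether their sign is inverted was not tested, and the turned values are a check and not an equal reading. The direction is read as sample over pool, and results are also given with the sign of CHF arrays 10 and 14 turned and with these arrays left out.

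**Figure D1:**
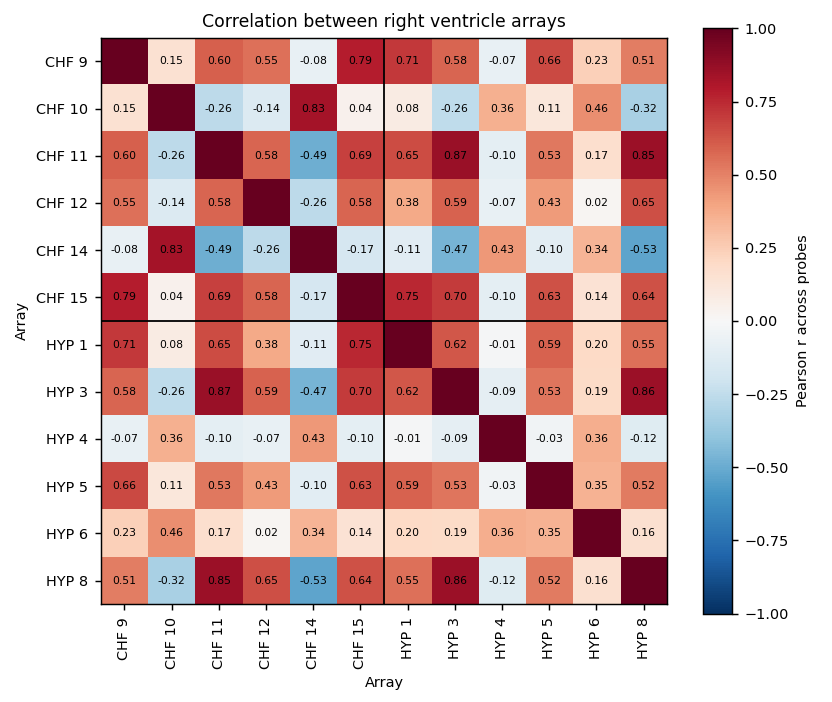
Pearson correlation across probes between the 12 right ventricle arrays, CHF first and HYP after, with a black line between the groups and colour from -1 to 1. CHF arrays 10 and 14 stand apart from the other CHF arrays, with r = 0.83 between them, and HYP array 4 stands apart from the other HYP arrays.

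No feature passed the test. Of the 3199 features tested, 0 (0%) had a limma adjusted p below 0.05 between CHF and HYP, and the smallest adjusted p was 0.258. At an unadjusted p below 0.05 there were 158, of which 106 (3.31%) had a positive difference and 52 (1.63%) a negative one. An exact permutation test of each feature, two-sided, gave 151 at an unadjusted p below 0.05 and 0 after adjustment. The smallest exact p that 6 against 6 arrays can give is 0.00216. Adjusted over 3199 features, this test had little room to call any, so its 0 adds little to that of limma. Among the 2439 genes, 97 (3.98%) lay at an unadjusted p below 0.05, 55 with a positive and 42 with a negative difference. The share over all features tested was 4.94%.

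The differences of the 2439 genes were small beside their errors. Their median was -0.071, with 1028 above 0 and 1411 below 0, against a median of -0.044 over all features tested. The 5th and 95th percentiles were -0.673 and 0.783, while the median half-width of the 95% interval was 0.78. A difference of 1 array SD or more, in either direction, was seen for 90 genes. The spread within a group was similar, with a median SD over genes of 0.607 among CHF arrays and 0.577 among HYP arrays. Without CHF arrays 10 and 14 it was 0.396 among the remaining 4 CHF arrays.

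**Figure D2:**
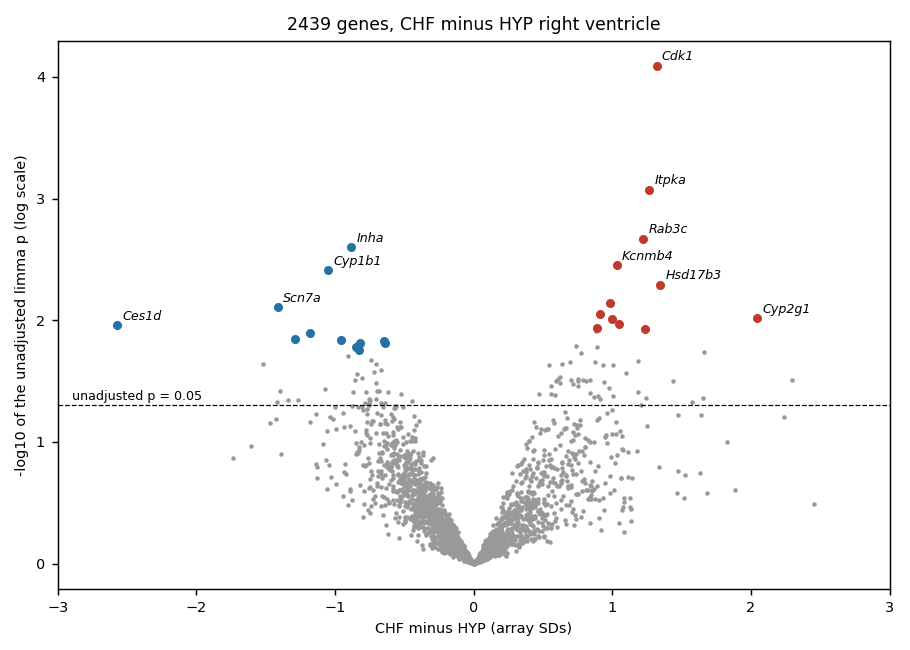
Each point is 1 of the 2439 genes, placed by its difference (CHF minus HYP, array SDs) and by the -log10 of its unadjusted limma p; the coloured points are the 12 genes with the smallest p in each direction. Cdk1 stands highest, Ces1d lies farthest to the left at -2.57, and 0 genes passed after adjustment.

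Complete separation of the groups was rare. Of 1707 features measured on all 12 arrays, 2 (0.117%) had every CHF array above every HYP array and 2 (0.117%) had every CHF array below. With labels given at random, a feature would separate in either direction with a probability of 0.00216, the smallest exact p above. The 2 shares together lie near this, so the separation of a named gene is a description only. The 3 named genes among them were Cdk1 and Itpka above and Inha below. Without CHF arrays 10 and 14, 9 features (0.527%) lay wholly above and 9 (0.527%) wholly below. Fewer arrays have to be kept apart there, so that chance separates more features. Those with a gene name, listed after their values were seen, were Cdk1, Itpka, Cox8a, Ddr2, Dynlt1, Ifrd1, Tgm2, Trpv1 and Tuba1b above, and Inha, Coq3, Gabra5, Kcnma1, Pafah1b1, Pnrc1 and Scn7a below. With the sign of these arrays turned instead, Cdk1, Cox8a and Tgm2 lay above and Kcnma1 below.

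Cdk1 had the smallest p of all features. Its scores in CHF ventricles ran from -0.545 to 0.817 with a median of 0.369, against -1.34 to -0.713 with a median of -1.10 in HYP ventricles. The groups did not overlap, the lowest CHF value being that of array 11. The difference was 1.32 ± 0.26 (SE, 6 CHF and 6 HYP arrays; 95% interval 0.77 to 1.87), with a limma adjusted p of 0.258. The exact permutation p of 0.00216 is the smallest that 6 against 6 arrays can give. The CON ventricles lay lower still, at -2.03 to -0.965. With the sign of CHF arrays 10 and 14 turned the difference was 1.28 (limma adjusted p = 0.108), and without these arrays it was 1.42 (limma adjusted p = 0.512). Leaving out CHF array 11, which holds the lowest CHF value, gave 1.48 with a limma adjusted p of 0.0496. Weighting the arrays by their quality gave 1.47 with one of 0.0191. No other setting passed the threshold. With each array left out the limma adjusted p reached 0.938, without HYP array 3. It was 0.587 with the scores as deposited and 0.691 with a trended robust fit.

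Ccnb1, which encodes cyclin B1, the partner of Cdk1, was at -0.587 to 0.805 with a median of 0.071 in CHF ventricles. The 5 HYP arrays with a value had -0.34, -1.39, -0.23, -1.03 and -0.73. The groups overlapped, 3 of these HYP values lying below the lowest CHF value. The difference was 0.84 ± 0.35 with a limma adjusted p of 0.938. Of the 45 genes listed for the cell cycle, 18 were measured, 12 with a positive and 6 with a negative difference. Cdk1 and Ccnb1 were the only 2 of them at an unadjusted p below 0.05, and 0 passed after adjustment. The list's median was 0.125, against -0.071 over all 2439 genes, and was -0.040 without CHF arrays 10 and 14 and 0.019 with their sign turned. In bulk tissue, more cycling cells and more of the transcript per cell cannot be told apart.

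The stretches of 150 bases before the annotated starts of Cdk1 and Ccnb1 are shown because these genes make up 1 kinase complex and are the members of the cell cycle list with the smallest p. They come from RefSeq's annotation of the rat build GRCr8, Cdk1 at chr20:19265143-19265292 on the plus strand and Ccnb1 at chr2:33655226-33655375 on the minus strand. Capitals mark the motif CCAAT, which reads ATTGG where it lies on the other strand, the motif TTTGAA and the motif TTTCGCGC.
Cdk1: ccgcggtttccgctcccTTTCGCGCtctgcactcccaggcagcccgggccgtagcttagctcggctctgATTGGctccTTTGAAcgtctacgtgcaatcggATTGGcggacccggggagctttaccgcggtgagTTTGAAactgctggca
Ccnb1: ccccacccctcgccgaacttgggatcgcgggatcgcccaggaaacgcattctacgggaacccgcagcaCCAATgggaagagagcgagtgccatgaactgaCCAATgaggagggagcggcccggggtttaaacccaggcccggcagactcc
CCAAT is the element bound by NF-Y, TTTGAA is the form of the cell-cycle homology region known from promoters of mitotic genes, and TTTCGCGC is a form of the E2F site. All were searched on both strands of the 250 bases before the start, and no motif overlapped another. Cdk1 held 3 CCAAT, 1 of them beyond the printed stretch at 210 to 206 bases before the start, 2 TTTGAA and 1 TTTCGCGC. Ccnb1 held 2 CCAAT. Among all 33469 promoters of the same length, 34% held CCAAT, 16.2% TTTGAA and 0.248% TTTCGCGC, and 532 (1.59%) held at least 2 CCAAT together with at least 1 TTTGAA. Of the 15 measured cell cycle genes with a promoter in the table, 8 (53.3%) held CCAAT and 2, Cdk1 and Cdkn2b, held TTTGAA. These matches describe letters and do not show that a factor binds there.

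Itpka had the next smallest p among the 2439 genes. In CHF ventricles it ran from 0.139 to 0.984 with a median of 0.478, against -1.32 to -0.172 with a median of -0.815 in HYP ventricles. The groups did not overlap on any array. The difference was 1.26 ± 0.32 (95% interval 0.60 to 1.93), with a limma adjusted p of 0.697. It was 1.04 with the sign of CHF arrays 10 and 14 turned and 1.36 without them. CON ventricles lay at -2.27 to -0.512. Of the 27 measured genes listed for inositol phosphate and calcium signalling, 12 had a positive and 15 a negative difference, with a median of -0.096. Itpka was the only one with a positive difference at an unadjusted p below 0.05. Inpp4b, a phosphatase that removes a phosphate from inositol lipids, was the only one with a negative difference there, at -0.82 ± 0.31 (limma adjusted p = 0.938). Its scores ran from -1.27 to 0.066 in CHF ventricles and from -0.414 to 0.526 in HYP ventricles, which overlap. Its difference was -0.13 with the sign of CHF arrays 10 and 14 turned and -0.66 without them.

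**Figure D3:**
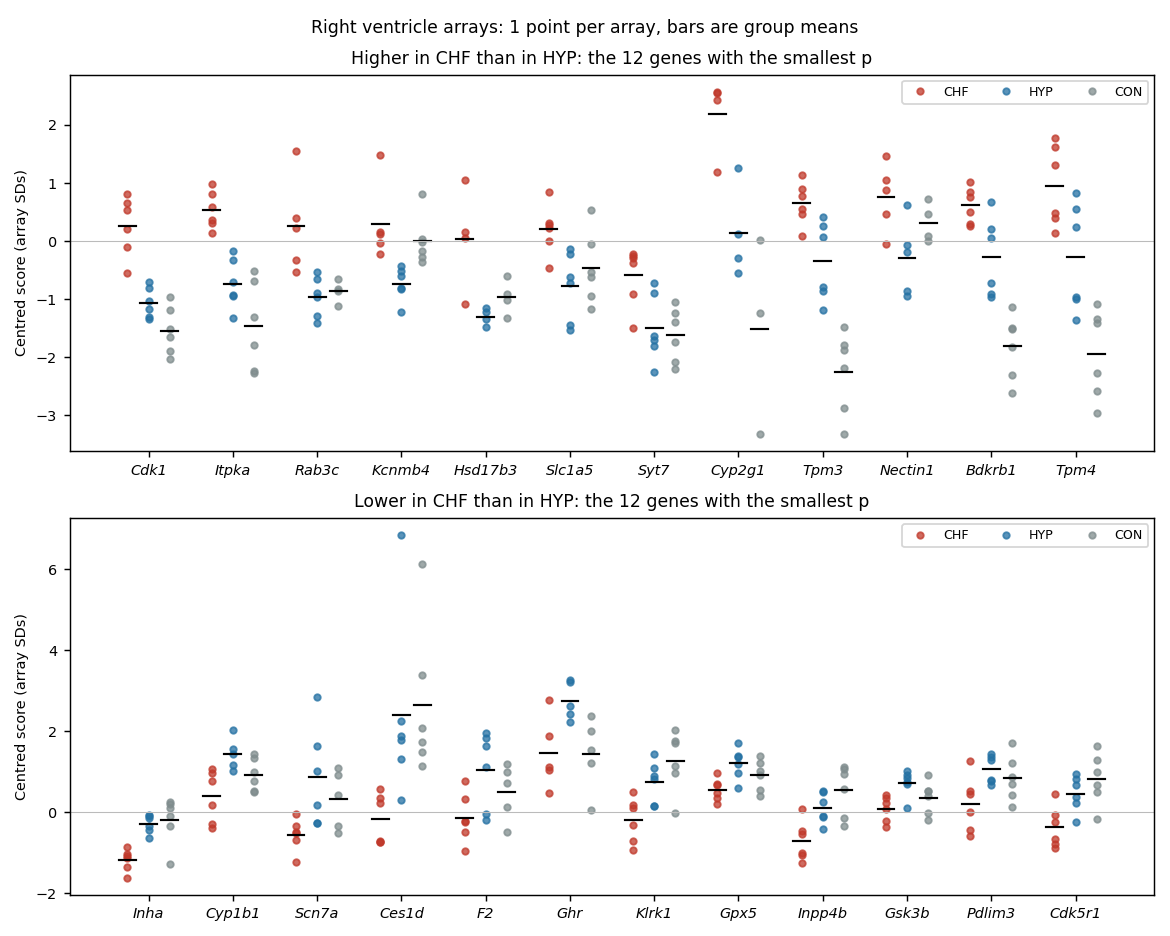
Scores (array SDs, median of each array at 0) of the 12 genes with the smallest p and a positive difference (upper panel) and the 12 with a negative one (lower panel), 1 point per right ventricle array for CHF, HYP and CON, with a bar at each group's mean. CHF and HYP do not overlap for Cdk1, Itpka, Rab3c, Kcnmb4, Hsd17b3 and Inha. Of these, Rab3c and Kcnmb4 have 5 CHF and 6 HYP values and Hsd17b3 4 and 4. Fewer values separate more readily by chance, and all were chosen for a small p. In the upper panel the CON mean is the lowest for 7 genes, Cdk1, Itpka, Syt7, Cyp2g1, Tpm3, Bdkrb1 and Tpm4.

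Among channel genes, Kcnmb4, a regulatory subunit of the large-conductance calcium-activated potassium channel, had scores of -0.03, 0.12, -0.22, 0.16 and 1.48 on the 5 CHF arrays that measured it. HYP ventricles lay at -1.23 to -0.425 with a median of -0.700. The groups did not overlap, and CHF array 15 stood well above the other CHF arrays. The difference was 1.03 ± 0.31 with a limma adjusted p of 0.772. Kcnma1 is the pore-forming subunit of the same channel. Its CHF values lay wholly below HYP only without CHF arrays 10 and 14 or with their sign turned. With all 12 arrays as deposited the groups overlapped for it.

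Scn7a, a sodium channel of the voltage-gated family that responds to extracellular sodium, ran from -1.24 to -0.050 with a median of -0.510 in CHF ventricles, against -0.267 to 2.84 with a median of 0.595 in HYP ventricles. The groups overlapped in a narrow range. The difference was -1.41 ± 0.47 (limma adjusted p = 0.938), and -1.59 without CHF arrays 10 and 14. Cacna2d1, an auxiliary subunit of voltage-gated calcium channels, was at -1.08, -0.62, -0.65, -0.61 and -1.72 on 5 CHF arrays, against -0.623 to 0.379 in HYP ventricles. Its difference was -0.79 ± 0.37 (limma adjusted p = 0.938) and -0.29 with the signs turned. It was the only one of 29 measured genes listed for calcium handling, channels and pumps at an unadjusted p below 0.05. In that list 12 differences were positive and 17 negative, and the median was -0.029 with all arrays and -0.159 without CHF arrays 10 and 14.

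Tropomyosins lie along the actin filament, and Tpm3 and Tpm4 are known chiefly from slow skeletal muscle and from non-muscle filaments. Tpm3 was at 0.086 to 1.13 with a median of 0.663 in CHF ventricles, against -1.18 to 0.411 with a median of -0.363 in HYP ventricles. Tpm4 was at 0.147 to 1.77 with a median of 0.897 in CHF ventricles, against -1.35 to 0.835 with a median of -0.361 in HYP ventricles. The groups overlapped for both genes, and CON ventricles lay below the lowest CHF value on every array, at -3.32 to -1.48 for Tpm3 and -2.96 to -1.09 for Tpm4. The differences were 1.0 ± 0.35 and 1.24 ± 0.44, each with a limma adjusted p of 0.938. With the sign of CHF arrays 10 and 14 turned they were 0.44 for Tpm3 and 0.10 for Tpm4. Without these arrays they were 0.91 and 0.87.

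Pdlim3, a protein of the Z-disc that binds alpha-actinin, had the smallest p among sarcomere genes with a negative difference. It ran from -0.592 to 1.26 in CHF ventricles, with a median of 0.223, and from 0.676 to 1.44 in HYP ventricles, with a median of 1.04. The groups overlapped. The difference was -0.85 ± 0.32 (limma adjusted p = 0.938) and -0.49 without CHF arrays 10 and 14. Of 15 measured sarcomere and Z-disc genes, 8 had a positive and 7 a negative difference. Tpm3, Tpm4 and Pdlim3 were the 3 at an unadjusted p below 0.05. The list's median was 0.233 with all arrays, -0.133 without CHF arrays 10 and 14 and -0.179 with their sign turned, so its sign depends on these arrays.

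The fetal and hypertrophy list held 9 measured genes, 5 with a positive and 4 with a negative difference. Its median was 0.262 with all arrays, 0.119 without CHF arrays 10 and 14 and -0.028 with their sign turned, so its sign depends on these arrays. Acta1, the skeletal actin that a loaded ventricle makes again, ran from 1.08 to 2.71 with a median of 1.62 in CHF ventricles and from -0.697 to 2.23 with a median of 0.285 in HYP ventricles. The groups overlapped, and CON ventricles lay at -4.13 to -0.947. The difference was 1.24 ± 0.57 (limma adjusted p = 0.938), 0.21 with the signs turned and 1.31 without CHF arrays 10 and 14. Acta2, the actin of smooth muscle, had a difference of 0.56 ± 0.25, and its 3 probes differed in size, at 1.08, 0.439 and 0.144. The Acta2 difference was 0.23 with the signs turned and 0.52 without CHF arrays 10 and 14. Ankrd1, a stress-responsive protein of the sarcomere and nucleus, ran from -0.157 to 2.29 in CHF ventricles and from -0.868 to 1.76 in HYP ventricles. Its difference of 0.68 ± 0.42 became -0.49 with the signs turned and 0.40 without CHF arrays 10 and 14. Nppa, Nppb and Myh7, further genes of this programme, were not among the 2439 genes.

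Other classical genes of the loaded ventricle showed wide overlap. Atp2a2, the calcium pump of the sarcoplasmic reticulum, differed by 0.64 ± 0.46, and Pln, its inhibitor phospholamban, by 0.18 ± 0.38. Myh6, the fast myosin heavy chain of the adult rat heart, differed by 0.33 ± 0.70, and Col1a1, a chain of fibrillar collagen, by 0.18 ± 0.28. Vegfa, an angiogenic growth factor, was at 3.51 and 3.12 on CHF arrays 10 and 14 and at -0.88, -0.93 and -0.59 on the other 3 CHF arrays that measured it. HYP ventricles spanned -0.766 to 1.503. The Vegfa difference of 0.35 ± 0.80 became -1.29 without arrays 10 and 14, and those of Myh6, Atp2a2 and Col1a1 became -0.83, -0.08 and -0.07.

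Tuba1b, an alpha-tubulin of microtubules, ran from -0.056 to 1.44 with a median of 0.811 in CHF ventricles, against -0.954 to 0.494 with a median of 0.215 in HYP ventricles. The groups overlapped with all arrays. The difference was 0.75 ± 0.33 (limma adjusted p = 0.938), and 1.04 without CHF arrays 10 and 14. It was the only one of 11 measured microtubule and motor genes at an unadjusted p below 0.05, with 5 positive and 6 negative differences. The list's median was -0.033 with all arrays but 0.164 without CHF arrays 10 and 14 and 0.341 with their sign turned.

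Among genes of vesicle traffic and cell contact, Rab3c, a small GTPase of secretory vesicles, was at -0.33, 0.23, -0.53, 0.40 and 1.55 on 5 CHF arrays. In HYP ventricles it ran from -1.41 to -0.535 with a median of -0.924. The groups did not overlap, although the lowest CHF and the highest HYP value almost met. The difference was 1.22 ± 0.33 (limma adjusted p = 0.697). Syt7, a calcium sensor of membrane fusion, differed by 0.91 ± 0.31, with -1.49 to -0.222 in CHF ventricles and -2.26 to -0.722 in HYP ventricles. Nectin1, a cell adhesion molecule, was at 1.47, 1.05, 0.47, -0.05 and 0.87 on 5 CHF arrays and at -0.95, -0.06, -0.19, -0.86 and 0.63 on 5 HYP arrays. It differed by 1.05 ± 0.36. Syt7 and Nectin1 overlapped between the groups, and each had a limma adjusted p of 0.938.

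Inha encodes the alpha subunit of inhibin, a hormone of the TGF-beta family known mainly from the gonads. It was the gene with the smallest p among those with a negative difference. CHF ventricles ran from -1.62 to -0.856 with a median of -1.10, against -0.640 to -0.080 with a median of -0.248 in HYP ventricles. The groups did not overlap. The difference was -0.89 ± 0.26 (95% interval -1.42 to -0.35; limma adjusted p = 0.697). It was -0.93 without CHF arrays 10 and 14 but -0.15 with their sign turned.

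Ghr, the growth hormone receptor, was at 1.11, 2.76, 0.47, 1.03 and 1.88 on 5 CHF arrays and at 2.22, 3.25, 2.61, 3.22 and 2.41 on 5 HYP arrays. A single CHF value reached into the HYP range. The difference was -1.29 ± 0.47 (limma adjusted p = 0.938). Areg, a ligand of the epidermal growth factor receptor, ran from -0.798 to -0.217 in CHF ventricles and from -0.464 to 0.270 in HYP ventricles. It differed by -0.44 ± 0.21, by 0.06 with the signs turned and by -0.33 without CHF arrays 10 and 14. Of the 28 measured growth factor genes, 12 differences were positive and 16 negative, with a median of -0.211. Fgfr1, a receptor for fibroblast growth factors, was the 1 with a positive difference at an unadjusted p below 0.05, at 0.91 ± 0.41, but its 2 probes disagreed in size, at 3.61 and 0.336, and the first had a value on only 1 CHF and 2 HYP arrays.

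Bdkrb1, the inducible receptor of bradykinin metabolites, was at 0.268 to 1.01 with a median of 0.631 in CHF ventricles, against -0.956 to 0.670 with a median of -0.338 in HYP ventricles. The groups overlapped, and every CON array lay below both, at -2.61 to -1.14. The difference was 0.89 ± 0.32 (limma adjusted p = 0.938), 0.36 with the signs turned and 0.80 without CHF arrays 10 and 14. Bdkrb1 had its highest CHF value on array 9 and its lowest HYP value on array 5, as Tpm3 did. Whether Bdkrb1 and Tpm3 are separate observations was not tested. Adcy5, the adenylyl cyclase that carries beta-adrenergic signals in heart muscle, ran from -1.05 to -0.093 in CHF ventricles and from -0.269 to 1.03 in HYP ventricles. Its difference of -0.67 ± 0.28 was -0.35 with the signs turned and -0.68 without CHF arrays 10 and 14. Of 20 neurohormonal genes measured, 12 differences were positive and 8 negative, with a median of 0.095 that was 0.215 without CHF arrays 10 and 14, and Bdkrb1 and Adcy5 were the 2 at an unadjusted p below 0.05.

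Hsd17b3, the enzyme that makes testosterone, was at 0.17, 0.05, -1.09 and 1.05 on 4 CHF arrays and at -1.48, -1.22, -1.34 and -1.16 on 4 HYP arrays, which do not overlap. Its difference was 1.34 ± 0.40, with an exact permutation p of 0.0286, against 0.00216 for Cdk1. Cyp2g1, a cytochrome P450 known from olfactory tissue, was at 2.57, 2.42, 1.19 and 2.54 on 4 CHF arrays, against 0.12, -0.30, 1.27 and -0.55 on 4 HYP arrays. The highest HYP value passed the lowest CHF value. The difference of 2.05 ± 0.66 became -0.44 with the signs turned and 1.74 without CHF arrays 10 and 14. Both genes had a limma adjusted p of 0.938 and were missing on a number of arrays.

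Ces1d, a carboxylesterase that hydrolyses lipid esters, had the most negative difference of the 2439 genes. CHF ventricles ran from -0.745 to 0.567 with a median of -0.246, against 0.304 to 6.84 with a median of 1.83 in HYP ventricles. The groups overlapped only slightly, and HYP array 4 held the highest value. The difference was -2.57 ± 0.91 (limma adjusted p = 0.938) and -1.68 without HYP array 4. Cyp1b1, a cytochrome P450 that oxidises oestrogens and arachidonic acid, ran from -0.402 to 1.06 in CHF ventricles, against 1.55, 1.43, 2.02, 1.17 and 1.02 on 5 HYP arrays. The highest CHF value passed the lowest HYP value. Its difference was -1.05 ± 0.32 (limma adjusted p = 0.772) and -0.69 without CHF arrays 10 and 14.

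Genes linked to oxidative stress pointed both ways. Gpx5, a glutathione peroxidase known from the epididymis, ran from 0.204 to 0.954 in CHF ventricles and from 0.585 to 1.72 in HYP ventricles, a difference of -0.64 ± 0.24. Gsta1, a glutathione transferase, differed by -0.74 ± 0.30, with -1.41 to -0.114 in CHF ventricles and -0.342 to 0.545 in HYP ventricles. Maoa, a monoamine oxidase that produces hydrogen peroxide, differed by 1.19 ± 0.47, with 0.840 to 2.37 in CHF ventricles and -0.828 to 2.04 in HYP ventricles, and by 0.22 with the signs turned. Every CON array lay below every CHF array for Maoa, at -3.10 to -0.932. Maoa and Acta1 had their highest values on the same arrays, CHF array 9 (2.37 and 2.71) and HYP array 1 (2.04 and 2.23). Their lowest values were also shared, on CHF array 12 (0.840 and 1.08) and HYP array 5 (-0.828 and -0.697). Whether Maoa and Acta1 are separate observations was not tested. The list for oxidative stress defence, in which Maoa was also placed, held 34 measured genes, 16 with a positive and 18 with a negative difference. Its median was -0.041, and 0.007 without CHF arrays 10 and 14. Slc1a5, a carrier of glutamine and other neutral amino acids, differed by 0.98 ± 0.33, with -0.455 to 0.845 in CHF ventricles and -1.53 to -0.137 in HYP ventricles. These genes overlapped between the groups, and each had a limma adjusted p of 0.938.

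The other 4 of the 12 genes with the smallest p and a negative difference follow. Gsk3b, a kinase that restrains hypertrophic growth, ran from -0.369 to 0.416 in CHF ventricles, with a median of 0.146, and from 0.097 to 1.01 in HYP ventricles, with a median of 0.793. Its difference was -0.64 ± 0.24, and -0.90 with the signs turned. Cdk5r1, the activator of the kinase Cdk5, differed by -0.83 ± 0.32, and by -0.34 with the signs turned. F2, prothrombin, differed by -1.18 ± 0.43, with -0.954 to 0.762 in CHF ventricles and -0.204 to 1.96 in HYP ventricles, and by -0.70 with the signs turned. Klrk1, a receptor of natural killer cells, differed by -0.96 ± 0.35, with -0.940 to 0.493 in CHF ventricles and 0.143 to 1.42 in HYP ventricles, and by -0.61 with the signs turned. Without CHF arrays 10 and 14 the differences were -0.79 for Gsk3b, -0.65 for Cdk5r1, -0.89 for F2 and -0.80 for Klrk1. Each of these 4 genes overlapped between the groups and had a limma adjusted p of 0.938.

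**Figure D4:**
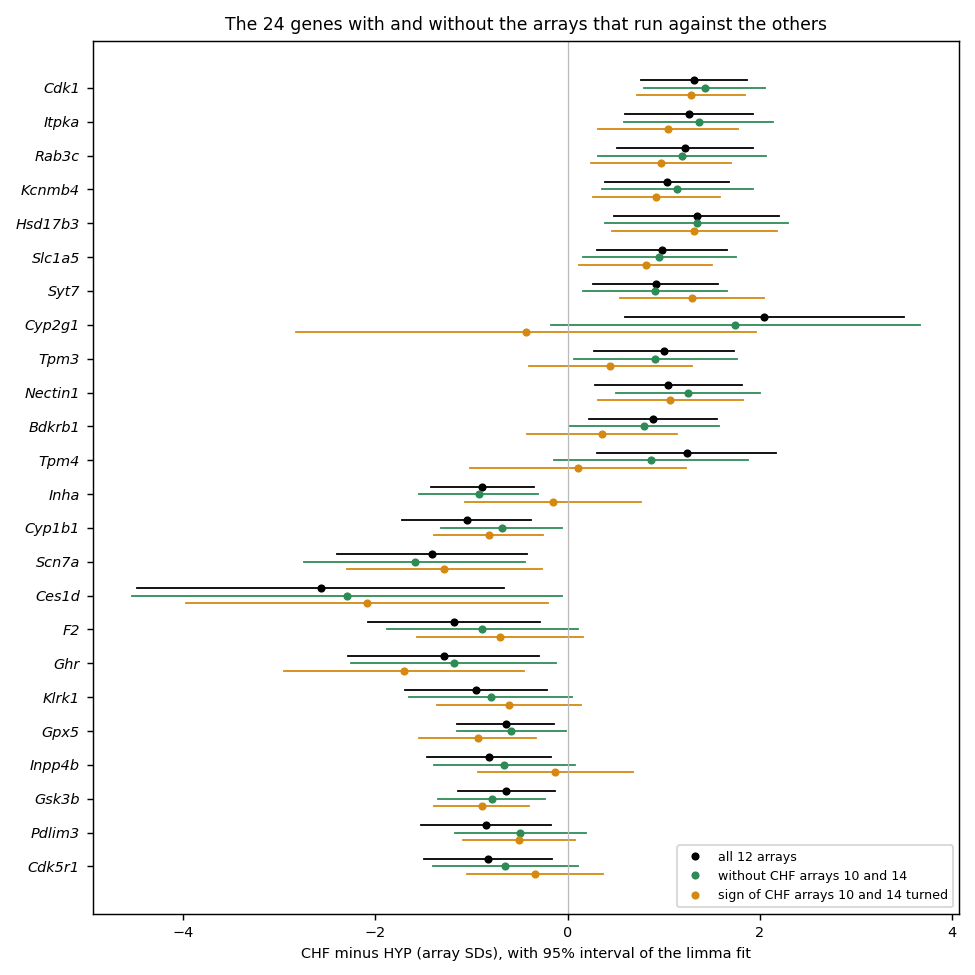
Difference (CHF minus HYP, array SDs) with its 95% interval from the limma fit for 24 genes, the 12 with the smallest p in each direction. All 12 arrays are in black, the fit without CHF arrays 10 and 14 in green and that with the sign of these arrays turned in orange. Cdk1 stays between 1.28 and 1.42, Inha is -0.15 and Tpm4 0.10 with the signs turned, and Cyp2g1 changes sign to -0.44. Without these arrays Inha is -0.93, Tpm4 0.87 and Cyp2g1 1.74.

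Genes of energy supply and protein turnover gave no calls. Of 31 measured genes of fatty acid uptake and oxidation, 9 differences were positive and 22 negative, with a median of -0.245 that was -0.148 without CHF arrays 10 and 14 and 0.020 with their sign turned. Decr1, a reductase needed to oxidise unsaturated fatty acids, was the only one of them at an unadjusted p below 0.05. It ran from -1.31 to 0.755 in CHF ventricles and from -0.072 to 0.980 in HYP ventricles, a difference of -0.81 ± 0.34 (limma adjusted p = 0.938) that was -0.33 without CHF arrays 10 and 14 and 0.02 with the signs turned. Of 28 genes of glucose uptake and glycolysis, 12 differences were positive and 16 negative, with a median of -0.066 that was -0.230 without CHF arrays 10 and 14 and -0.151 with their sign turned. Eno3, the enolase of striated muscle, differed by -0.70 ± 0.30, with -0.847 to 0.987 in CHF ventricles and 0.471 to 1.22 in HYP ventricles, and by -0.34 without CHF arrays 10 and 14. The 34 genes of the respiratory chain and citric acid cycle split into 14 positive and 20 negative differences, with a median of -0.092 that was -0.215 without CHF arrays 10 and 14 and -0.269 with their sign turned.

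Of 35 proteasome and ubiquitin genes, 5 differences were positive and 30 negative, with a median of -0.190. The median was -0.199 without CHF arrays 10 and 14 but 0.009 with their sign turned. Psme1, a subunit of the proteasome activator induced by interferon, was the only one at an unadjusted p below 0.05. It differed by -0.61 ± 0.28, with -0.451 to 1.19 in CHF ventricles and 0.650 to 1.17 in HYP ventricles, and by -0.25 without CHF arrays 10 and 14. Cytosolic ribosomal protein genes had 16 positive and 46 negative differences among 62, with a median of -0.141 that was -0.061 without CHF arrays 10 and 14, and none had an unadjusted p below 0.05 by limma. These counts stand beside 1411 negative differences among all 2439 genes, and genes of 1 complex share the arrays, so that 1 array can move all of them.

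The remaining lists held few genes with a small p. Collagen and matrix genes had 16 positive and 9 negative differences, with a median of 0.057 that was -0.070 without CHF arrays 10 and 14 and -0.044 with their sign turned. Angiogenesis genes had 8 positive and 12 negative differences, with a median of -0.133 that was -0.302 without these arrays and -0.267 with the signs turned. Heat shock and folding genes had 11 positive and 8 negative differences, and their median of 0.101 became -0.298 without these arrays and -0.333 with the signs turned. Hypertrophy signalling kinases had 10 positive and 9 negative differences, and their median of 0.092 became -0.097 and -0.049 in these 2 settings. None of these 4 lists held a gene at an unadjusted p below 0.05 by limma. Among 14 genes of cell death the only one was Aifm1, a mitochondrial flavoprotein released in cell death, at -0.76 ± 0.36. That list's median was -0.092, and 0.113 with the signs turned. Among 21 cytokine and acute phase genes they were Nfkbia, the inhibitor of NF-kappaB, at -0.68 ± 0.31, and Fgb, a chain of fibrinogen, at 0.79 ± 0.34. With the signs turned Nfkbia was at -0.33 and Fgb at 0.18, and without CHF arrays 10 and 14 they were at -0.54 and 0.63. The median of this list, -0.013 with all arrays, was 0.177 without these arrays and 0.287 with the signs turned.

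Markers of the other cells that a piece of ventricle can hold varied between arrays as well. All 4 measured erythrocyte genes had a positive difference. Their median was 0.923 with all arrays, 0.819 without CHF arrays 10 and 14, 2.67 with the sign of these arrays turned and 0.064 when the arrays were weighted. The mean of these genes ran from -3.55 to -0.740 over CHF arrays, from -4.42 to -2.03 over HYP arrays and from -4.84 to -1.92 over CON arrays. Hbb, the beta chain of haemoglobin, differed by 1.47 ± 1.04. Its difference was 3.70 with the signs turned, 1.77 without CHF arrays 10 and 14 and 0.21 when the arrays were weighted. Of 7 smooth muscle and pericyte genes, 6 had a positive difference, with a median of 0.457, and their mean ran from 0.074 to 0.815 over CHF arrays and from -0.221 to 0.357 over HYP arrays. Acta2 and Cald1, caldesmon, were the 2 at an unadjusted p below 0.05. The Cald1 difference of 0.70 ± 0.30 was 0.19 with the signs turned and 0.64 without CHF arrays 10 and 14. This list's median was 0.221 without CHF arrays 10 and 14 and -0.171 with the sign of CHF arrays 10 and 14 turned.

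The mean of 12 cardiomyocyte genes ran from -2.23 to 1.09 over CHF arrays and from -0.932 to 0.902 over HYP arrays. The lowest CHF mean was that of array 12, and the next lowest was -0.756. Array 12 also had the fewest values of the 12 arrays, 2162 (55.0% of probes missing), and the smallest SD, 0.87. Whether this has a part in its low scores was not tested. The median difference of this list was -0.268 with all arrays, -0.955 without CHF arrays 10 and 14 and 0.122 without CHF array 12. Tnnt2 and Tnni3, cardiac troponins T and I, differed by -0.70 ± 0.55 and -0.61 ± 0.59. CHF array 12 had the lowest value of both, at -2.57 and -2.87, and without it the differences were -0.22 and -0.12. The 11 fibroblast genes had a median of 0.137 that was -0.070 without CHF arrays 10 and 14 and -0.355 with their sign turned. The 4 endothelial genes had a median of 0.066 that was -0.205 and -0.307 in these settings. The 4 macrophage genes had a median of 0.242, which was 0.183 and 0.287. The 9 neural genes had a median of -0.115, which was -0.091 and -0.278, and the 5 lymphocyte and mast cell genes one of -0.035, which was -0.105 and -0.070. The 4 adipocyte genes had a median of 0.031 (0.092 and 0.182), the 3 atrial genes one of -0.128 (-0.133 and -0.179) and the 6 skeletal muscle genes one of -0.102 (0.049 and -0.054). Tnni2, the fast skeletal troponin I, was the only skeletal muscle gene at an unadjusted p below 0.05. Its difference of 0.60 ± 0.26 was 0.13 with the signs turned and 0.33 without CHF arrays 10 and 14. Whether the cell content of the samples has a part in the differences of Cdk1, Itpka or Inha was not tested.

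The CON ventricles show where the 24 genes, the 12 with the smallest p in each direction, lay without the disease model. Among the 12 with a positive difference, the HYP mean lay between those of CHF and CON for 7, among them Cdk1, Itpka, Tpm3 and Tpm4, and the CON mean lay between those of CHF and HYP for 5. Cdk1 averaged 0.259 in CHF, -1.06 in HYP and -1.54 in CON ventricles. Among the 12 with a negative difference, the HYP mean lay in between for 5, the CON mean for 6 and the CHF mean for 1, Ghr. Inha averaged -1.18 in CHF, -0.291 in HYP and -0.196 in CON ventricles. These genes were chosen by their CHF and HYP values, so the positions are a description.

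The left ventricle, which monocrotaline does not load directly, was measured on 2 CHF and 2 HYP arrays of the same day, which the rule for the members did not use. The values of the whole series, these arrays included, were known when the comparison was chosen, so they are given as a description and not as independent support. Cdk1 was at -0.122 and 0.470 in CHF left ventricles, against -1.62 and -1.21 in HYP left ventricles. The groups did not overlap, which is frequent by chance with 2 against 2 arrays. The difference was 1.59 ± 0.43 (limma adjusted p = 0.593), its SE resting on the spread of all groups, and 1.32 in the right ventricle. Ccnb1 was at 0.149 and 0.060 in CHF left ventricles, against -3.05 and -1.87 in HYP left ventricles, a difference of 2.56 ± 0.57 (limma adjusted p = 0.593). Itpka was at 0.402 and -0.160 in CHF left ventricles, against -0.250 and -3.21 in HYP left ventricles, so that 1 HYP array made most of its difference of 1.85 ± 0.68. Inha was at -1.02 and -1.47 in CHF left ventricles, against -0.095 and -0.634 in HYP left ventricles, a difference of -0.88 ± 0.45.

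Of the 24 genes, 20 could be tested in both ventricles and 14 of them (70.0%) had a difference of the same sign, against 1680 (65.1%) of all 2581 features. For Ces1d the sign was opposite, at 2.29 ± 1.58 in the left ventricle, where CHF had 3.47 and -0.110 and HYP 0.120 and -1.35. The left ventricle samples carry the numbers of CHF samples 9 and 15 and HYP samples 3 and 5 of the right ventricle, and may come from the same hearts, so they are not independent samples. Across the 2581 features with enough values, limma called 0 (0%) for a difference of the effect between the ventricles, with 35 at an unadjusted p below 0.05. It called 0 in the left ventricle alone, with 79 at an unadjusted p below 0.05. The right minus left difference of the Cdk1 effect was -0.27 ± 0.50 (limma adjusted p = 0.999). It was -0.42 with the sign turned on 5 arrays, among them right ventricle arrays 10 and 14 and left ventricle array 9, all CHF. Left ventricle array 9 correlated with right ventricle arrays at -0.314 (HYP array 8) to 0.523 (CHF array 14). With the other left ventricle arrays it correlated at 0.09 to 0.688, and at 0.469 with array 15 of its own group. Turning it sets it against these arrays, so no conclusion is drawn from the turned value. With 2 arrays a group in the left ventricle, the fitted differences limit the size of a difference between ventricles only loosely.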

How the data were processed

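Ventricle RNA of rats was measured on 2-colour arrays against a reference pool. The values are the authors' deposited score for each probe and array; scale, centring, dyes, scanner, background correction, normalization and filters are not given in any of the sources used here. Array means (-0.0345 to 0.0713) and SDs (0.87 to 1.007) showed scores standardised within arrays, and array medians of the 12 arrays ran from -0.147 to 0.217, so each array was centred on its median.

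Of 4803 probes, 4278 had 1 symbol in the platform annotation, 4 several and 521 none; 4257 were found by Entrez identifier in RefSeq's GRCr8 annotation, with 0 symbols changed. Probes of a gene were averaged on each array (125 genes had more than 1 probe), giving 4126 genes and 4651 features, of which 615 genes had no value on the 12 arrays. Groups follow the labels, and all samples are of day 14. Linear models with moderated variances (limma 3.58.1, R 4.3.3) were fitted to the 18 right ventricle arrays, over features with at least 2 values per group, with Benjamini-Hochberg adjustment over all features and a threshold of 0.05. The left ventricle fit used all 24 arrays, its groups of 2 being assumed to vary like the others. Exact permutation tests were two-sided, on the absolute difference of means. Scripts ran in Python 3.11.15 (pandas 2.3.3, scipy 1.17.1), with statmod 1.5.0 for the replicate block, and were tested on simulated data.

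The named genes are the 12 with the smallest p in each direction, Cdk1 and Itpka, the 2 with the smallest p in each direction of each gene list, and classical genes of the loaded ventricle; not all of them are printed. The comparison, its genes and the 31 gene lists were chosen with earlier results of these data known. Alternatives were the deposited scores without centring, the 12 arrays alone, signs turned or arrays left out, array weights, filters on missing values, a trended robust fit, another choice of probe and leaving out each array in turn.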

Additional observations from a re-analysis of the deposited data

Results flagged for a closer look

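Of 106 groups of 4 to 6 values checked, 8 (7.55%) held an array that stood apart from the others of its group by Dixon's test, and chance flags about 1 in 20. Kcnmb4 was at 1.48 on CHF array 15, with the other 4 CHF values between -0.22 and 0.16. Cyp2g1 was at 1.19 on CHF array 11, with the other 3 CHF values between 2.42 and 2.57. Tnnt2 was at -2.57 on CHF array 12, with the others between -0.27 and 0.64. Among HYP arrays, Ces1d was at 6.84 on array 4 (others 0.30 to 2.25), Ddr2, a collagen receptor, at -0.94 on array 4 (others -0.25 to 0.03), Gsk3b at 0.10 on array 5 (others 0.70 to 1.01), Psme1 at 0.65 on array 6 (others 1.01 to 1.17) and Cald1 at 0.72 on array 1 (others -0.37 to -0.10). HYP array 4 was flagged for 2 genes and each of the other arrays named here for 1. For Ces1d and Ddr2 the array is one that correlated little with the rest, and whether that has a part in these values was not tested.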

How the results depend on the processing

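The count of features past the adjusted threshold was 0, and 1 in 3 settings: Clu with the sign of CHF arrays 10 and 14 turned, and Cdk1 with array weights and without CHF array 11; leaving out each array in turn gave 0 to 1. The count at an unadjusted p below 0.05 was 158 in the main analysis, 257 with the signs turned, 362 with array weights, 82 over features on all 12 arrays, 76 without CHF arrays 10 and 14 and HYP array 4 (a setting chosen after seeing the data), and 81 to 300 with each array left out, lowest without CHF array 10 and highest without CHF array 11. CHF array 14 left out gave 99. Of 1207 values for 53 genes, 1182 kept direction and side of the threshold, 23 reversed and 2 passed the threshold. The 12 arrays alone, the filters on missing values, the trended robust fit and the permutation test leave each difference as it was. Their values are among the 1207 and could not reverse, so the 1182 are not a measure of stability. With the signs turned, Cyp2g1 was -0.44, Ankrd1 -0.49, Atp2a2 -0.55, Pln -0.49, Vegfa -2.30, Col1a1 -0.35, Myh6 -0.03, Decr1 0.02 and Areg 0.06. With array weights, Vegfa was -0.18 and Hba-a1 -0.10. Without CHF arrays 10 and 14, Atp2a2 was -0.08, Vegfa -1.29, Col1a1 -0.07 and Myh6 -0.83, and without HYP array 4 as well they were -0.10, -1.09, -0.20 and -0.44. With each array left out, Vegfa ran from -0.31 to 0.80 and Myh6 from -0.18 to 0.72. The causes were not tested. Of 682 list medians, 22 moved and 98 changed sign. With the sample number as a replicate block across ventricles (estimated correlation 0.239), the right minus left difference of the Cdk1 effect was -0.13, against -0.27 without it, and 0 features were called for a difference between ventricles, as without it. No block could be used between CHF and HYP, which share no number. The arrays number 12 and the scores carry no signal over background, so small differences between weak probes cannot be judged.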
